A study of Bos taurus with 37 samples.

Results

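The comparison of somatic nuclear transfer with sham transfer was made on 11 of the 37 libraries of the series, 6 single female SCNT blastocysts (SCNT-BLs) and 5 single female sham nuclear transfer blastocysts (sham NT-BLs) of cattle. All 11 were chosen by their labels and none by a measured value. The genes compared were the 14494 autosomal rows, of 22628 rows in the table, with a mean over 0.1 FPKM (fragment counts scaled by transcript length and by the mapped total of the library) in these 11 libraries. X-linked genes were left out.

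The series set blastocysts from in vitro fertilization (IVF-BLs), SCNT and sham transfer side by side in both sexes, with 1 library of each donor fibroblast population. For SCNT, a single adult ear skin fibroblast of a female animal was placed into an oocyte whose own chromosomes had been taken out, and the pair was fused and activated; all 6 female SCNT-BLs thus carry the genome of 1 donor population. For the sham transfer, fertilized eggs with both pronuclei had the zona torn and the polar body with some ooplasm removed, were then activated with ionomycin and DMAP as well, and kept their own maternal and paternal genomes. Both groups were cultured to the blastocyst stage, and single embryos judged to be of high quality by cell number were lysed, their poly(A) RNA amplified and sequenced. The female libraries were pooled and run on a flow cell apart from the male ones, so sex and flow cell were the same in the compared groups. Each embryo is 1 replicate, p values measure the spread between embryos, and the 2 groups differ in the nucleus, in the fusion, in fertilization and in the genotype of the embryos, which cannot be told apart here.

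A blastocyst holds an outer trophectoderm, which pumps fluid behind a seal of tight junctions and later forms the placenta, and an inner cell mass that separates into epiblast and primitive endoderm. After nuclear transfer the oocyte cytoplasm has to silence the fibroblast program and restart these embryonic programs from a differentiated genome. Sham transfer goes through the handling and the activation without a somatic nucleus, so it serves as the control for manipulation.

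The sham NT libraries of both sexes stood apart from every other blastocyst library. On the first principal component of log2(FPKM + 1), which held 18% of the variance of 10716 autosomal genes over 35 blastocysts, female sham NT-BLs lay between 21 and 51.2 and male sham NT-BLs between 30.5 and 67.8. Female SCNT-BLs lay between -56.3 and -27.5 and female IVF-BLs between -40.3 and -30.7, so on this axis the female SCNT-BLs overlapped the IVF-BLs and not the sham NT-BLs. Whether sham libraries were prepared on another occasion is not given in the sources used here, and such a step and the treatment cannot be told apart.

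**Figure D1:**
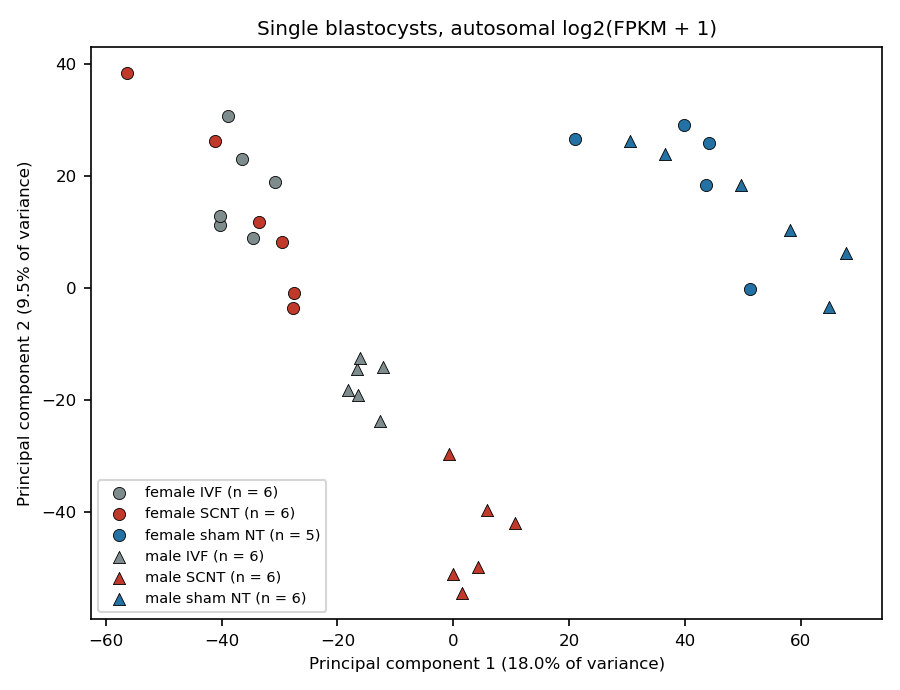
Each point is 1 blastocyst placed by its first principal component (horizontal axis, 18% of variance) and second principal component (vertical axis, 9.5%) of autosomal log2(FPKM + 1); circles are females, triangles males, and colour gives the origin. The 5 female sham NT-BLs lie between 21 and 51.2 on the first component and the 6 female SCNT-BLs between -56.3 and -27.5, beside the female IVF-BLs.

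Within the female SCNT-BLs, replicates 1 to 4 and replicates 5 and 6 differed in library make-up. Ribosomal RNA rows held 0.607% to 12.6% of the summed autosomal FPKM in SCNT-BLs (median 9.74%) and 1% to 2.12% in sham NT-BLs. RN18S1, the 18S ribosomal RNA, stood at 38240, 54130, 41350 and 38220 FPKM in SCNT-BLs 1 to 4, at 5693 and 2710 FPKM in SCNT-BLs 5 and 6, and at 4661 to 9758 FPKM in sham NT-BLs. The relative depth read from the steps of low values was 1.395 to 1.741 in SCNT-BLs 1 to 4, 0.543 and 0.758 in SCNT-BLs 5 and 6 and 0.633 to 1.214 in sham NT-BLs. The total counts and those of the main gene lists are therefore given below also without SCNT-BLs 1 to 4 and without SCNT-BLs 5 and 6. Autosomal FPKM summed to 454400 ± 27740 (SD, n = 6) in SCNT-BLs and to 514000 ± 20180 (SD, n = 5) in sham NT-BLs (exact two-sided permutation test, p = 0.00866, adjusted p = 0.0375 over 13 measures), while the number of genes over 1 FPKM was 9962 ± 523 against 9844 ± 211 (exact p = 0.643).

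The labelled tissue was checked on its markers, which were chosen for this check and not by the rule for named genes. CDX2, the trophectoderm transcription factor, averaged 20.9 FPKM in SCNT-BLs and 14.1 FPKM in sham NT-BLs and was listed at 0 in the donor fibroblasts. COL1A1, a collagen of fibroblasts, averaged 0.621 and 0.505 FPKM in the 2 groups against 2141 FPKM in the donor library. Other fibroblast markers were not all as low: the list summed to 336.1 to 1027 FPKM in SCNT-BLs and 596.8 to 892.5 FPKM in sham NT-BLs. The keratins KRT8 and KRT18 of the outer epithelium were among the most abundant transcripts in both groups: KRT18 averaged 2354 FPKM in SCNT-BLs and 2361 FPKM in sham NT-BLs (adjusted p = 0.77), and KRT8 1923 and 1424 FPKM (adjusted p = 0.54). Summed levels of the cumulus and granulosa list ran from 27.7 to 54.6 FPKM in SCNT-BLs and from 33.3 to 76.7 FPKM in sham NT-BLs, and those of the blood list from 12.8 to 50.9 and from 12.3 to 45.2 FPKM, so both overlapped. Of their 8 and 5 tested members 0 were called (limma), and 2 and 1 members, all lower in SCNT-BLs, had a p under 0.05 before adjustment. In whole embryos, more cells of a type and more RNA per cell cannot be told apart.

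Female SCNT-BLs and sham NT-BLs differed at 1640 of the 14494 autosomal genes (limma, adjusted p under 0.05), of which 765 were higher in SCNT-BLs (5.28% of all tested) and 875 lower (6.04%). ESRRB, KLF5, ID2 and WWTR1 were among the genes that rose, and PHB, MCL1, PSMC3, H2AFZ and DBF4 among those that fell. On the log2 scale 655 of the genes called higher and 768 of those called lower changed by at least 1, 71 and 166 of them by at least 2, and the median change was 1.34 among the higher and -1.45 among the lower genes against 0.05 over all genes tested. Before adjustment, p was under 0.05 for 1866 higher and 1812 lower genes. In 476 of the 765 and in 548 of the 875 the 6 SCNT-BLs and the 5 sham NT-BLs did not overlap at all, where 8.47% of all genes tested had groups that did not overlap (4.14% with SCNT-BLs higher and 4.33% with them lower).

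Calls were made more often among abundant transcripts. With the genes split by mean FPKM into 4 classes of like size, 0.58% were called higher and 0.248% lower in the lowest class, and in the highest, from 19.3 FPKM upward, 10.2% were called higher and 15.8% lower. The background for every count of list members below is 5.28% higher and 6.04% lower over all genes tested, beside these shares by class. Of the 100 most abundant autosomal genes, 7 were called higher in SCNT-BLs and 29 lower. Summed over genes, the mean difference of SCNT-BLs minus sham NT-BLs was -107200 FPKM for the called lower genes and 31960 FPKM for the called higher ones.

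With each embryo left out in turn, 477 to 791 genes were called higher and 659 to 890 lower, and 373 of the 765 and 563 of the 875 kept their call every time. The fewest higher calls came without sham NT-BL 4 (477) and sham NT-BL 3 (504). Without SCNT-BLs 5 and 6 there were 769 higher and 892 lower calls, and without SCNT-BLs 1 to 4, which leaves 2 embryos against 5, there were 416 and 501. Of the 1640 calls, 1297 were kept without SCNT-BLs 5 and 6 and 614 without SCNT-BLs 1 to 4. With mapped reads as a covariate 1146 were kept, and with replicate numbers as a block 1079. No called gene turned its direction in any of these fits. Of the 235 called genes that are named by the rule given in the methods, 145 kept their call with each embryo left out and 75 in all 24 alternatives. Among those described below, AQP3, B3GNT6, CASP2, COX5A, DPPA3, EHMT1, EPRS, GDF9, GRB10, HIST1H1C, HIST1H2AG, HIST1H2BD, HSPA4, HYOU1, LOC782021, MIR2290, NDUFA4, NDUFB9, PDIA4, PDK1, PFKL, PKP2, POU5F1, PTGES, RBBP4, RUNX1, SALL4, SLC3A2, SOD1, SPRY2, TRIM21 and XBP1 kept their call with each embryo left out but lost it without SCNT-BLs 1 to 4 (adjusted p from 0.0506 for SOD1 to 0.42 for LOC782021). All fold changes are on the log2(FPKM + 1) scale, which understates the change of genes of low level. Rose and fell below mean higher and lower in SCNT-BLs than in sham NT-BLs, and do not say which group departs from IVF-BLs.

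**Figure D2:**
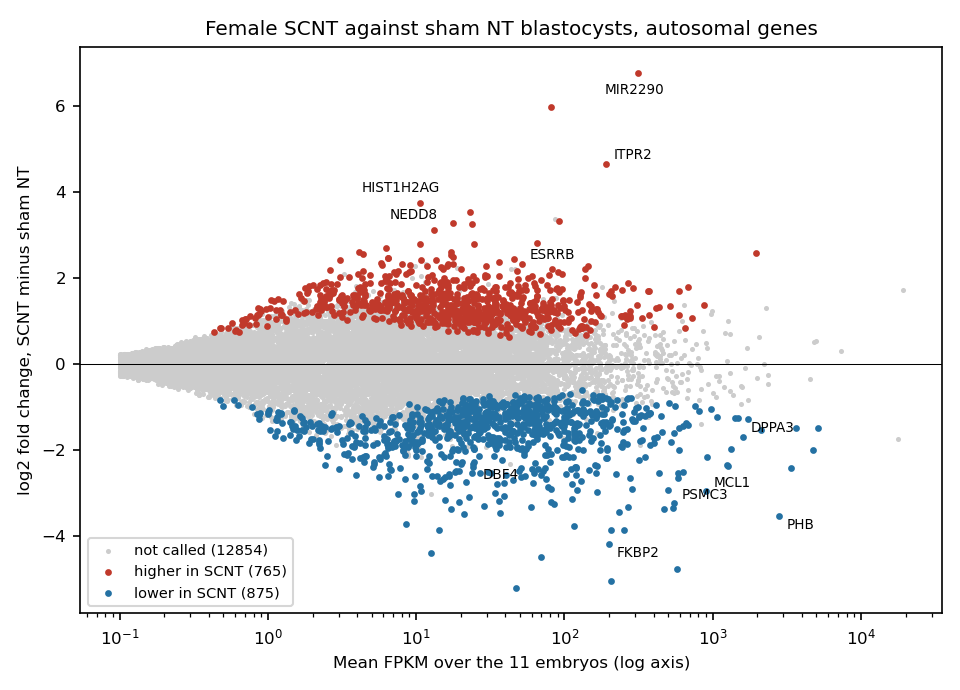
Each point is 1 autosomal gene, with its mean FPKM over the 11 female embryos on the horizontal log axis and the log2 fold change of SCNT-BLs minus sham NT-BLs on the vertical axis; red marks the 765 genes called higher in SCNT-BLs, blue the 875 called lower. The blue points extend further to the right, among transcripts of 1000 FPKM and more, than the red ones.

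The profiles of embryos were more alike within a group than between the groups. Pairs of SCNT-BLs correlated at r = 0.881 to 0.949 (median 0.906) and pairs of sham NT-BLs at r = 0.903 to 0.939 (median 0.92), while an SCNT-BL and a sham NT-BL correlated at r = 0.812 to 0.907 (median 0.881), across 14494 genes that are not independent of each other. The mean r within groups exceeded that between groups by 0.0385 (exact two-sided permutation test, p = 0.00216, the smallest that the labelings allow). SCNT-BL 6 was the least typical of its group, with r = 0.915 against the mean of the other 5 SCNT-BLs, where SCNT-BLs 1 to 5 had 0.933 to 0.961. Sham NT-BL 1 lay nearest to the other group, with r = 0.929 against the SCNT mean. The spread within groups was similar, with a median SD of 0.542 over SCNT-BLs and 0.504 over sham NT-BLs on the log2 scale, and 54.9% of genes had the larger SD in SCNT-BLs.

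Of the 20 inner cell mass and epiblast genes that were tested, 5 (25%) rose (ESRRB, POU5F1, KLF4, SALL4 and IFITM3) and none fell. Over all genes tested 5.28% rose and 6.04% fell. The median log2 fold change was 0.38 over the list, and with median centring of the libraries 5 rose and 1 fell. The counts were 3 higher and 1 lower without SCNT-BLs 1 to 4, and 5 higher and 0 lower without SCNT-BLs 5 and 6, with medians of 0.11 and 0.36. ESRRB, an orphan nuclear receptor of the pluripotency network, had the smallest adjusted p of all genes that rose. ESRRB was at 57.1 to 113 FPKM (median 79.9) in the 6 SCNT-BLs against 13.6, 13.9, 18.3, 12.1 and 18.9 FPKM in sham NT-BLs 1 to 5. No sham NT-BL reached the lowest SCNT-BL (log2 fold change 2.34 ± 0.23 (SE), adjusted p = 3.7e-05), and female IVF-BLs had 81.2 ± 27.9 FPKM (SD, n = 6).

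KLF4, a Krüppel-like factor of the same network, was at 17.1 to 39.7 FPKM (median 22.2) in the 6 SCNT-BLs against 9.56, 12, 8.96, 9.26 and 7.19 FPKM in sham NT-BLs 1 to 5. The groups did not overlap (log2 fold change 1.28 ± 0.28 (SE), adjusted p = 0.0074). POU5F1, which encodes OCT4, was at 27.3 to 67.2 FPKM (median 48.1) in the 6 SCNT-BLs against 18.2, 11.1, 31.7, 12.3 and 17.2 FPKM in sham NT-BLs 1 to 5. Here the lowest SCNT-BL lay below the highest sham NT-BL (log2 fold change 1.40 ± 0.30 (SE), adjusted p = 0.0073). Without SCNT-BLs 1 to 4 the POU5F1 call was lost (adjusted p = 0.14). IFITM3, an interferon-inducible membrane protein also found in early germ cells, was at 279 to 908 FPKM in SCNT-BLs against 68.3 to 237 FPKM in sham NT-BLs and did not overlap (log2 fold change 1.71, adjusted p = 0.0081); its symbol occurs in 2 rows of the table. SALL4, a zinc finger factor of stem cells, ranged over 24.8 to 53.7 FPKM in SCNT-BLs against 7.35 to 26.9 FPKM in sham NT-BLs and overlapped (log2 fold change 1.20, adjusted p = 0.019); its call was lost with mapped reads as a covariate (adjusted p = 0.056). SOX2, a further factor of the epiblast, averaged 19.3 FPKM in both groups. The summed level of the whole list was 777 to 1533 FPKM in SCNT-BLs and 554 to 689 FPKM in sham NT-BLs, without overlap, and 656 to 1617 FPKM in female IVF-BLs. IFITM3 alone, at 279 to 908 FPKM in SCNT-BLs and 68.3 to 237 FPKM in sham NT-BLs, held a large part of this sum. The sum thus does not stand for the list as a whole.

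Of 21 tested trophectoderm genes 5 (23.8%) rose (KLF5, ID2, FURIN, TEAD4 and DLX3) and none fell. Over all genes tested 5.28% rose and 6.04% fell. The median of the list was 0.37, and with median centring 3 rose and 1 fell. There were 2 higher and 0 lower without SCNT-BLs 1 to 4, and 3 higher and 0 lower without SCNT-BLs 5 and 6, with medians of 0.14 and 0.4. KLF5, a Krüppel-like factor of the first lineage decision, was at 67.3 to 177 FPKM (median 94) in the 6 SCNT-BLs against 44.4, 39.5, 36.8, 37.4 and 36.7 FPKM in sham NT-BLs 1 to 5. All 6 SCNT-BLs lay above all 5 sham NT-BLs (log2 fold change 1.34 ± 0.23 (SE), adjusted p = 0.002), and female IVF-BLs had 80.2 ± 15.3 FPKM (SD, n = 6). ID2, an inhibitor of basic helix-loop-helix factors, was at 12.8 to 46.7 FPKM (median 18.4) in the 6 SCNT-BLs against 1.42, 1.5, 5.47, 2.25 and 6.38 FPKM in sham NT-BLs 1 to 5. Again no values overlapped (log2 fold change 2.41 ± 0.41 (SE), adjusted p = 0.0017). The other 3 calls were lost with single embryos left out: FURIN, a proprotein convertase, without sham NT-BL 2 (adjusted p up to 0.051), and both TEAD4, the DNA-binding partner of YAP and TAZ, and DLX3, a homeobox factor, without SCNT-BL 1, 3, 5 or 6 or sham NT-BL 2, 3 or 4 for TEAD4 (adjusted p up to 0.1) and without SCNT-BL 1, 4, 5 or 6 or sham NT-BL 2, 3, 4 or 5 for DLX3 (adjusted p up to 0.078). CDX2 itself did not pass (adjusted p = 0.22), and the summed level of the list overlapped, at 4351 to 8393 FPKM in SCNT-BLs and 4435 to 7520 FPKM in sham NT-BLs.

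Of the Hippo-YAP list, which steers trophectoderm fate, 2 of 23 tested members rose (WWTR1 and TEAD4) and none fell (median 0.07). WWTR1, the transcriptional coactivator TAZ, was at 179.6 to 461 FPKM (median 229) in the 6 SCNT-BLs against 102, 64, 113, 119 and 58.2 FPKM in sham NT-BLs 1 to 5. The groups did not overlap (log2 fold change 1.62 ± 0.29 (SE), adjusted p = 0.0025), and in males WWTR1 also rose, by 2.34 (adjusted p = 6.9e-05).

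Of 39 tested genes for junctions, pumps and aquaporins, with which the trophectoderm seals and fills the blastocoel, 7 (17.9%) rose and 2 (5.1%) fell (median 0.22). Over all genes tested 5.28% rose and 6.04% fell. With median centring 3 members of the list rose and 2 fell. The counts became 1 higher and 1 lower without SCNT-BLs 1 to 4, and 6 higher and 3 lower without SCNT-BLs 5 and 6. PKP2, a desmosomal plaque protein, rose by 0.97 (adjusted p = 0.012), and AQP3, a water and glycerol channel, by 1.27 (adjusted p = 0.016). PKP2 lost its call with mapped reads as a covariate (adjusted p = 0.094) and AQP3 with replicate numbers as a block (adjusted p = 0.054). In the other direction CLDN10, a tight junction claudin, fell, with 0.364 to 13.3 FPKM in SCNT-BLs against 23.1 to 44.9 FPKM in sham NT-BLs (log2 fold change -2.49, adjusted p = 0.0061). PKP2 and AQP3 kept their call with each embryo left out, as did 3 of the 7 that rose in all.

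Of the primitive endoderm list 1 member was higher and 4 were lower of 21 tested (median -0.1); the counts were 1 higher and 1 lower without SCNT-BLs 1 to 4, and 1 higher and 3 lower without SCNT-BLs 5 and 6. RSPO3, a secreted enhancer of Wnt signalling, was at 0 to 3.79 FPKM (median 0.822) in the 6 SCNT-BLs against 4.97, 12.7, 8.85, 4.56 and 7.89 FPKM in sham NT-BLs 1 to 5. The groups did not overlap (log2 fold change -2.17 ± 0.45 (SE), adjusted p = 0.0061), though the symbol occurs in 2 rows. The 3 other genes that fell were LRP2, FGFR4 and LAMB1, by 1.09, 0.94 and 0.76 on the log2 scale (adjusted p = 0.023, 0.021 and 0.028), and GATA6, an endoderm transcription factor, rose by 0.82 (adjusted p = 0.029). Each of these 4 lost its call with single embryos left out. LRP2, an endocytic receptor, lost it without SCNT-BL 3 or sham NT-BL 4 or 5 (adjusted p up to 0.06). For FGFR4, a growth factor receptor, this was so without sham NT-BL 2, 3 or 4 (adjusted p up to 0.058), for LAMB1, a laminin chain, without SCNT-BL 2 or sham NT-BL 2, 4 or 5 (adjusted p up to 0.076), and for GATA6 without SCNT-BL 3 or 4 or sham NT-BL 1, 3 or 4 (adjusted p up to 0.074).

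**Figure D3:**
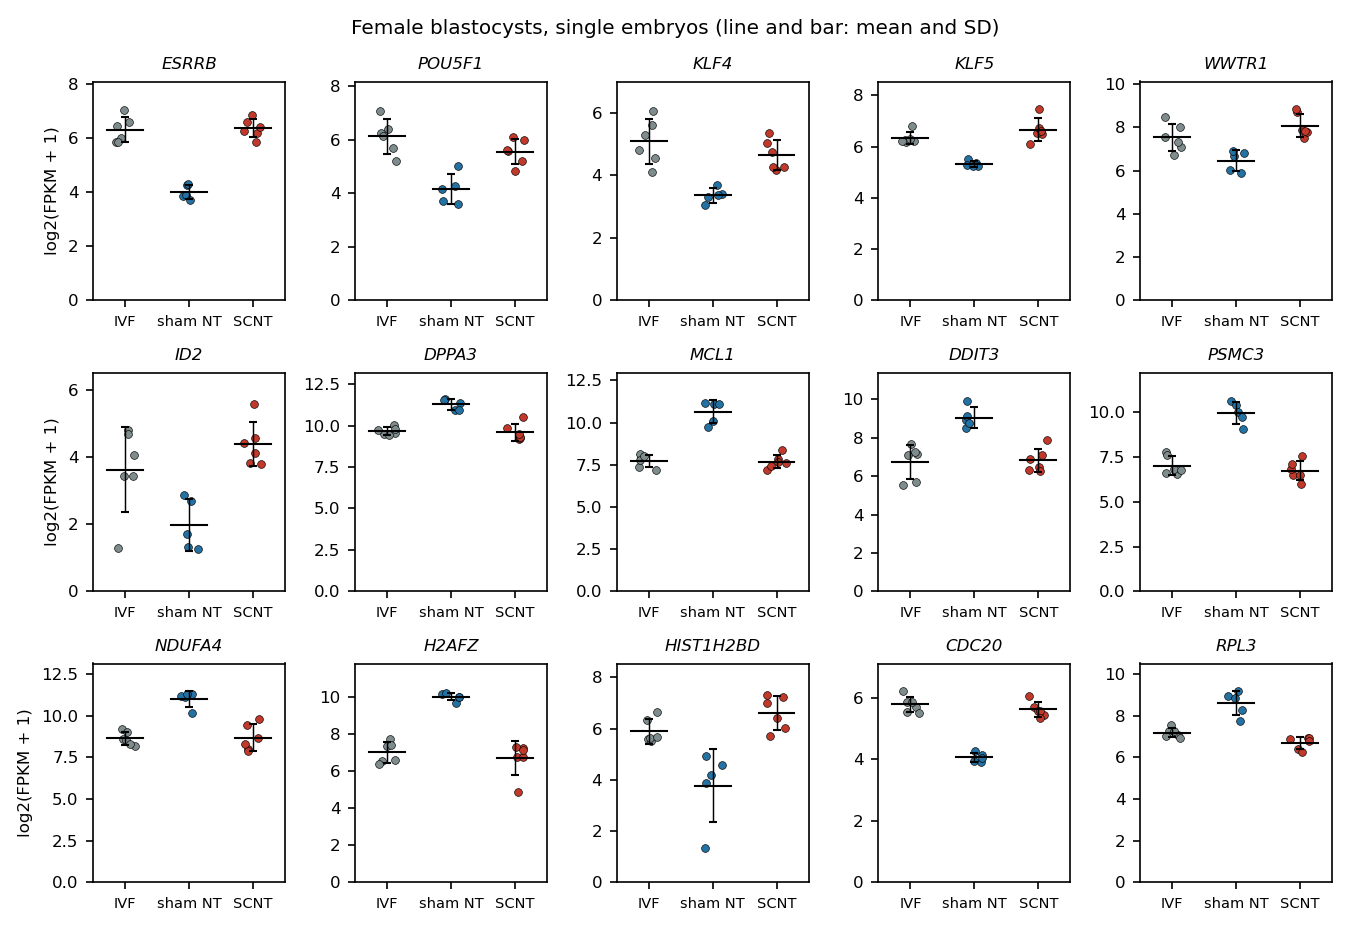
Levels of 15 genes as log2(FPKM + 1) (vertical axes) in single female IVF-BLs (n = 6), sham NT-BLs (n = 5) and SCNT-BLs (n = 6); each point is 1 embryo, the line the mean and the bar the SD. For ESRRB, KLF4, KLF5, WWTR1, ID2, CDC20 and HIST1H2BD every SCNT-BL lies above every sham NT-BL, and for DPPA3, MCL1, DDIT3, PSMC3, NDUFA4, H2AFZ and RPL3 every SCNT-BL lies below.

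Maternal transcripts of the oocyte were low in both groups beside that of DPPA3. DPPA3, which shields the early genome from loss of DNA methylation, was at 569.8 to 1460 FPKM (median 684) in the 6 SCNT-BLs against 1949, 2645, 3110, 2984 and 1976 FPKM in sham NT-BLs 1 to 5. All SCNT-BLs lay below all sham NT-BLs (log2 fold change -1.68 ± 0.31 (SE), adjusted p = 0.0026), and female IVF-BLs had 822 ± 135 FPKM (SD, n = 6). Without SCNT-BLs 1 to 4 its call was lost (adjusted p = 0.12). GDF9, an oocyte growth factor, was at 0 to 0.111 FPKM (median 0) in the 6 SCNT-BLs against 0.969, 0.307, 1.12, 2.08 and 0.881 FPKM in sham NT-BLs 1 to 5 and was called lower too (adjusted p = 0.012), at levels close to 0. Of the 19 tested members 2 fell and none rose (median -0.08), and the summed level, nearly all of it DPPA3, was 584 to 1491 FPKM in SCNT-BLs against 1980 to 3159 FPKM in sham NT-BLs.

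The donor-high set was 618 genes at 5 FPKM or more in female donor fibroblasts and under 0.5 FPKM in the female IVF-BL mean. Of these, 338 passed the filter on low values, 0 were called higher in SCNT-BLs and 8 lower by limma (median log2 fold change -0.03). Before adjustment 11 higher and 22 lower genes had a p under 0.05. Among all genes of 0.1 to 0.878 FPKM 0.58% were called higher and 0.248% lower. In males 2 of 335 tested members were called higher and 7 lower. The median level of the tested genes was 0.281 FPKM in female SCNT-BLs and 0.324 FPKM in female sham NT-BLs. The medians of 0.244 FPKM in female IVF-BLs and 11 FPKM in the donor cells follow from the choice of genes. Where the pseudocount was 0.1, 2 were called higher. With male in place of female IVF-BLs for the choice of genes 9 were called higher and 5 lower, so the counts depended on that choice. Of 22 tested fibroblast markers THY1, a surface glycoprotein, was called higher and PDGFRB, a growth factor receptor, lower. THY1 was at 1.23 to 6.75 FPKM in SCNT-BLs against 0 to 1.4 FPKM in sham NT-BLs and 604 FPKM in the donor cells, and its call was lost without SCNT-BL 3, 4, 5 or 6 or sham NT-BL 1, 2, 3 or 4 (adjusted p up to 0.11). PDGFRB lost its call without sham NT-BL 3 (adjusted p up to 0.063).

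In the opposite set, of 485 genes at 5 FPKM or more in female IVF-BLs and under 0.5 FPKM in the donor cells, 477 were tested, 45 were higher in SCNT-BLs and 25 lower (median 0.15). Of the same set 34 were called higher and 22 lower in males. The background in females was 5.28% higher and 6.04% lower over all genes tested, which include many of low level that are seldom called. This set had a median of 11.8 FPKM in SCNT-BLs and 10.4 FPKM in sham NT-BLs. Among all genes of 4.65 to 19.3 FPKM 7.15% were called higher and 5.52% lower, and from 19.3 FPKM upward 10.2% and 15.8%.

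HOX genes, which mark the body position of adult fibroblasts, were mostly at low levels, and 0 of 19 tested members passed in either direction (limma; before adjustment 2 had a p under 0.05 in each direction). Of 23 tested imprinted genes 2 fell, GRB10 and GNAS. GRB10, an adaptor that restrains growth signalling, was at 15.3 to 25.1 FPKM (median 15.6) in the 6 SCNT-BLs against 32.1, 36, 51.2, 83.7 and 25.7 FPKM in sham NT-BLs 1 to 5. The groups did not overlap (log2 fold change -1.19 ± 0.29 (SE), adjusted p = 0.016). GNAS, a G protein alpha subunit, was at 104 to 184 FPKM in SCNT-BLs against 167 to 316 FPKM in sham NT-BLs (log2 fold change -0.79, adjusted p = 0.041) and lost its call without SCNT-BL 1, 3, 4, 5 or 6 or sham NT-BL 2, 3, 4 or 5 (adjusted p up to 0.11).

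Histone genes of the replication-dependent clusters showed the largest share of higher calls of any list with at least 15 tested members. Of 22 tested 6 (27.3%) rose and none fell (median 0.78), beside 5.28% higher and 6.04% lower over all genes tested. HIST1H2BD, an H2B gene, was at 50.9 to 156 FPKM (median 105) in the 6 SCNT-BLs against 17.3, 22.9, 13.6, 1.53 and 29.1 FPKM in sham NT-BLs 1 to 5. HIST1H2BN, a further H2B gene, was at 28.4 to 140 FPKM (median 109.7) in the 6 SCNT-BLs against 28.5, 28.8, 14.4, 17.4 and 25.5 FPKM in sham NT-BLs 1 to 5. The first did not overlap (log2 fold change 2.83 ± 0.52 (SE), adjusted p = 0.0028), while for the second SCNT-BL 1 lay at the level of the highest sham NT-BLs (log2 fold change 1.88 ± 0.36 (SE), adjusted p = 0.0037).

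HIST1H2AG, an H2A gene, was listed at 0 in all 5 sham NT-BLs and in SCNT-BL 5 and stood at 11.8 to 35.1 FPKM in the other 5 SCNT-BLs (adjusted p = 0.0038). HIST1H2AD was likewise at 0 in every sham NT-BL and at 0.459 to 19.6 FPKM in SCNT-BLs (adjusted p = 0.0073). HIST1H1C, a linker histone, was at 0 in every sham NT-BL and at 0 to 6.72 FPKM in SCNT-BLs (adjusted p = 0.019). HIST1H2AG, HIST1H2AD and HIST1H1C thus passed the filter through SCNT-BLs alone and could only be called higher. The rank of the list rests in part on them. Over all genes 28 called higher had a sham NT-BL mean under 0.1 FPKM, and 10 called lower an SCNT-BL mean under 0.1 FPKM. The call of HIST1H1C was lost with mapped reads as a covariate (adjusted p = 0.2). HIST1H2AJ was also called (adjusted p = 0.033) but not without SCNT-BL 1, 2, 3 or 4 or sham NT-BL 1, 3, 4 or 5 (adjusted p up to 0.077). The median of the list, set against the mean of the sham NT-BLs, was 0.43, 1.35, 0.96, 1.02, 0.20 and -0.36 on the log2 scale in SCNT-BLs 1 to 6 and -0.04 to 0.14 in sham NT-BLs. SCNT-BLs 1 to 4, the libraries rich in ribosomal RNA, thus had the 4 highest values. Transcripts of these clusters mostly carry no poly(A) tail while the libraries started from poly(A) RNA, and near-identical copies can share reads. The part of ribosomal RNA content in the result was not tested beyond the counts without SCNT-BLs 1 to 4, which were 2 higher and 0 lower; without SCNT-BLs 5 and 6 they were 8 and 0.

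H2AFZ, the replication-independent variant H2A.Z, went the other way. It was at 28.7 to 159 FPKM (median 125) in the 6 SCNT-BLs against 833, 1051, 1023, 1166 and 1203 FPKM in sham NT-BLs 1 to 5. The lowest sham NT-BL exceeded the highest SCNT-BL more than 5 times over in FPKM (log2 fold change -3.34 ± 0.37 (SE), adjusted p = 8.3e-05), and H2AFZ fell in males by 1.98 (adjusted p = 0.00036) on the log2 scale as well.

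Of 20 tested DNA methylation genes 2 rose and 2 fell, of 18 for H3K9 methylation 2 and 2, of 34 for Polycomb and H3K27 2 and 3, and of 18 deacetylases and their corepressors 4 and 1. For the deacetylases the shares were 22.2% higher and 5.6% lower, beside 5.28% and 6.04% over all genes tested. With median centring 2 of them rose and 1 fell. Their counts were 1 higher and 1 lower without SCNT-BLs 1 to 4, and 1 higher and 0 lower without SCNT-BLs 5 and 6. PRDM2, an H3K9 methyltransferase, was at 79.2 to 194 FPKM (median 99.2) in the 6 SCNT-BLs against 60.9, 44.4, 39.8, 50.05 and 20.4 FPKM in sham NT-BLs 1 to 5. Its groups did not overlap (log2 fold change 1.38 ± 0.30 (SE), adjusted p = 0.0076). EHMT1, the H3K9 methyltransferase GLP, was at 4.76 to 8.63 FPKM (median 8.35) in the 6 SCNT-BLs against 15.2, 21.6, 15.7, 22.1 and 29.4 FPKM in sham NT-BLs 1 to 5. It lay lower in all SCNT-BLs (log2 fold change -1.29 ± 0.27 (SE), adjusted p = 0.0062) but not past the threshold without SCNT-BLs 1 to 4 (adjusted p = 0.1).

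MTF2, a Polycomb accessory protein, was at 8.05 to 12.4 FPKM (median 9.54) in the 6 SCNT-BLs against 26.8, 47, 41.1, 43.5 and 52.1 FPKM in sham NT-BLs 1 to 5. The groups were well apart (log2 fold change -1.98 ± 0.24 (SE), adjusted p = 0.00017). RBBP4, a histone chaperone shared by several chromatin complexes, rose by 0.94 (adjusted p = 0.018), but the call was lost with mapped reads as a covariate (adjusted p = 0.088).

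Of 32 tested genes of the integrated and ER stress responses 5 fell and 3 rose (median -0.09); the counts were 1 higher and 3 lower without SCNT-BLs 1 to 4, and 2 higher and 5 lower without SCNT-BLs 5 and 6. DDIT3, which encodes the stress factor CHOP, was at 76 to 236 FPKM (median 101) in the 6 SCNT-BLs against 474, 559, 364, 957 and 435 FPKM in sham NT-BLs 1 to 5. The groups did not overlap (log2 fold change -2.23 ± 0.32 (SE), adjusted p = 0.00061). ATF6, a sensor in the ER membrane, was at 46.9 to 118 FPKM (median 64.3) in the 6 SCNT-BLs against 457, 278, 273, 369 and 298 FPKM in sham NT-BLs 1 to 5. It lay lower in every SCNT-BL (log2 fold change -2.19 ± 0.26 (SE), adjusted p = 0.00016).

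SLC3A2, the heavy chain of amino acid exchangers, fell by 1.79 on the log2 scale (adjusted p = 0.0022), and the ER chaperones PDIA4 and HYOU1 by 1.03 and 0.95 (adjusted p = 0.0083 and 0.0075). XBP1, a transcription factor of the same response, rose by 1.22 (adjusted p = 0.0085). All 5 genes that fell kept their call with each embryo left out, as did XBP1 among the 3 that rose. The other 2, SLC7A5, a light chain that pairs with SLC3A2, and SHMT2, a mitochondrial serine hydroxymethyltransferase, lost theirs, SLC7A5 without SCNT-BL 2, 3, 5 or 6 or sham NT-BL 2, 3, 4 or 5 (adjusted p up to 0.089) and SHMT2 without SCNT-BL 1 or 3 or sham NT-BL 1 (adjusted p up to 0.055).

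MCL1, an antiapoptotic member of the BCL2 family, was at 147 to 334 FPKM (median 199) in the 6 SCNT-BLs against 1109, 2214, 2216, 2307 and 854 FPKM in sham NT-BLs 1 to 5. Sham NT-BLs exceeded SCNT-BLs without overlap (log2 fold change -2.96 ± 0.32 (SE), adjusted p = 6.5e-05), and female IVF-BLs had 218 ± 52.7 FPKM (SD, n = 6). It was 1 of 33 tested genes of the p53 and apoptosis list, of which 2 rose and 2 fell (median 0.16). CASP2, an initiator caspase, also fell, with 8.67 to 14.4 FPKM in SCNT-BLs against 24.2 to 41.8 FPKM in sham NT-BLs (log2 fold change -1.44, adjusted p = 0.0014). Of 29 tested heat shock genes 2 fell and none rose, HSPA4 by 0.81 (adjusted p = 0.012) and HSPD1 by 0.91 (adjusted p = 0.031). Both are chaperones, of the cytosol and of mitochondria; HSPA4 lost its call with mapped reads as a covariate (adjusted p = 0.068) and HSPD1 without SCNT-BL 4 or sham NT-BL 2, 4 or 5 (adjusted p up to 0.073).

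Antioxidant genes split, with 1 of 29 tested members higher and 2 lower (median 0.14). GCLC, the rate-limiting enzyme of glutathione synthesis, was at 74.9 to 132 FPKM (median 82.4) in the 6 SCNT-BLs against 25, 39.3, 28.1, 33.9 and 25.6 FPKM in sham NT-BLs 1 to 5. It did not overlap (log2 fold change 1.59 ± 0.23 (SE), adjusted p = 0.00059). SOD1, the cytosolic superoxide dismutase, was at 153 to 302 FPKM (median 172) in the 6 SCNT-BLs against 351, 778, 622, 748 and 770.5 FPKM in sham NT-BLs 1 to 5. Every SCNT-BL lay below every sham NT-BL (log2 fold change -1.72 ± 0.27 (SE), adjusted p = 0.0012). PRDX3, a mitochondrial peroxiredoxin, fell as well, with 5.75 to 37.9 FPKM in SCNT-BLs against 48.9 to 87.6 FPKM in sham NT-BLs (log2 fold change -1.77, adjusted p = 0.0082).

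Of 77 tested genes of oxidative phosphorylation 13 (16.9%) were lower in SCNT-BLs and 2 (2.6%) higher, with a median of -0.21; among all genes of the highest class of abundance, given above, 15.8% were lower and 10.2% higher. NDUFA4, a small subunit of the cytochrome c oxidase complex, was at 239.5 to 899.5 FPKM (median 358) in the 6 SCNT-BLs against 2560, 2227, 2365, 2496 and 1170 FPKM in sham NT-BLs 1 to 5. No values overlapped (log2 fold change -2.34 ± 0.37 (SE), adjusted p = 0.0012), and female IVF-BLs averaged 414.6 FPKM. NDUFB9, a complex I subunit, was at 38 to 118 FPKM (median 49.3) in the 6 SCNT-BLs against 236, 193, 208, 142 and 129.8 FPKM in sham NT-BLs 1 to 5. It too lay lower in every SCNT-BL (log2 fold change -1.64 ± 0.29 (SE), adjusted p = 0.0022). Only COX5A, a further cytochrome c oxidase subunit, and NDUFS8, an iron-sulfur subunit of complex I, rose, by 1.58 (adjusted p = 0.0073) and 0.95 (adjusted p = 0.024); NDUFS8 lost its call without SCNT-BL 2 or 3 or sham NT-BL 1, 2 or 4 (adjusted p up to 0.061). Of the 13 lower calls 7 were kept with each embryo left out, and the counts of the list were 0 higher and 3 lower without SCNT-BLs 1 to 4, and 3 higher and 12 lower without SCNT-BLs 5 and 6. In males 11 members were called higher and 7 lower, with a median of 0.14.

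PHB, an inner mitochondrial membrane scaffold that is no member of the list, was the called gene with the largest drop in mean FPKM after CLIC1, a chloride channel protein (5662 to 423.4 FPKM for PHB, and 7860 to 2149 FPKM for CLIC1, adjusted p = 0.00809, named after its values were seen). PHB was at 275 to 659 FPKM (median 372) in the 6 SCNT-BLs against 2476, 8387, 8752, 7109 and 1587 FPKM in sham NT-BLs 1 to 5. The lowest sham NT-BL exceeded the highest SCNT-BL (log2 fold change -3.53 ± 0.46 (SE), adjusted p = 0.00028), and female IVF-BLs had 383.9 ± 75.1 FPKM (SD, n = 6). DBT, a subunit of the branched-chain ketoacid dehydrogenase, was at 13.6 to 36.5 FPKM (median 24.9) in the 6 SCNT-BLs against 204, 153, 243, 247 and 233 FPKM in sham NT-BLs 1 to 5 and fell with one of the 6 smallest adjusted p values (log2 fold change -3.13 ± 0.27 (SE), adjusted p = 1.5e-05). Of 30 tested genes of glycolysis and glucose transport 2 fell, PFKL, a phosphofructokinase, by 1.35 (adjusted p = 0.0019) and PDK1, a pyruvate dehydrogenase kinase, by 1.23 (adjusted p = 0.007), and none rose.

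Of 46 tested proteasome genes 8 (17.4%) were lower in SCNT-BLs and 4 (8.7%) higher, with a median of -0.37. These shares were near the 15.8% lower and 10.2% higher in the highest class of abundance. The counts were 1 higher and 4 lower without SCNT-BLs 1 to 4, and 3 higher and 10 lower without SCNT-BLs 5 and 6. PSMC3, an ATPase of the regulatory particle, was at 62.5 to 184 FPKM (median 101) in the 6 SCNT-BLs against 529, 1564, 1349, 1034 and 850.4 FPKM in sham NT-BLs 1 to 5. The lowest sham NT-BL was far above the highest SCNT-BL (log2 fold change -3.23 ± 0.32 (SE), adjusted p = 4.0e-05). PSMB5, the subunit with chymotrypsin-like activity, was at 2.97 to 34.2 FPKM (median 21.2) in the 6 SCNT-BLs against 132, 134, 169, 244 and 134 FPKM in sham NT-BLs 1 to 5. Its groups did not overlap either (log2 fold change -3.24 ± 0.46 (SE), adjusted p = 0.00061). PSMD8, of the regulatory particle, went the other way, at 100.2 to 536 FPKM (median 155) in the 6 SCNT-BLs against 64.4, 46.6, 45, 23.2 and 52.7 FPKM in sham NT-BLs 1 to 5, also without overlap (log2 fold change 2.01 ± 0.38 (SE), adjusted p = 0.0035).

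Of 77 tested cytosolic ribosomal protein genes 9 (11.7%) were higher and 13 (16.9%) lower, beside 10.2% and 15.8% in the highest class of abundance, and the median was 0.02. The list had 2 higher and 10 lower without SCNT-BLs 1 to 4, and 9 higher and 14 lower without SCNT-BLs 5 and 6. RPL3, of the large subunit, was at 75.2 to 123 FPKM (median 113) in the 6 SCNT-BLs against 314, 586, 501, 457 and 218 FPKM in sham NT-BLs 1 to 5. It was lower in every SCNT-BL than in any sham NT-BL (log2 fold change -1.92 ± 0.27 (SE), adjusted p = 0.00052). RPL10A fell further, with 47.2 to 109 FPKM in SCNT-BLs against 219.7 to 1755 FPKM in sham NT-BLs (log2 fold change -3.37, adjusted p = 0.0002), and RPS14 rose most, with 152 to 6374 FPKM in SCNT-BLs against 202 to 703 FPKM in sham NT-BLs (log2 fold change 2.59, adjusted p = 0.044), though its call was lost without SCNT-BL 1, 2, 3 or 4 or sham NT-BL 1, 2, 3 or 4 (adjusted p up to 0.1). With each embryo left out, 4 of the 9 and 7 of the 13 were kept. In males 23 were higher and 10 lower, with a median of 0.59. Transcripts of this family have many processed copies in the genome, and reads can be shared between them.

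Of 74 tested mitochondrial ribosomal protein genes 6 rose and 4 fell (median 0.08); the counts were 1 higher and 4 lower without SCNT-BLs 1 to 4, and 8 higher and 5 lower without SCNT-BLs 5 and 6. Aminoacyl-tRNA synthetases had the lowest median of any list, -0.45, with 2 of 20 tested members higher and 2 lower; EPRS, which charges glutamate and proline tRNAs, was at 81.9 to 121 FPKM in SCNT-BLs against 207 to 255 FPKM in sham NT-BLs without overlap (log2 fold change -1.15, adjusted p = 0.0016).

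**Figure D4:**
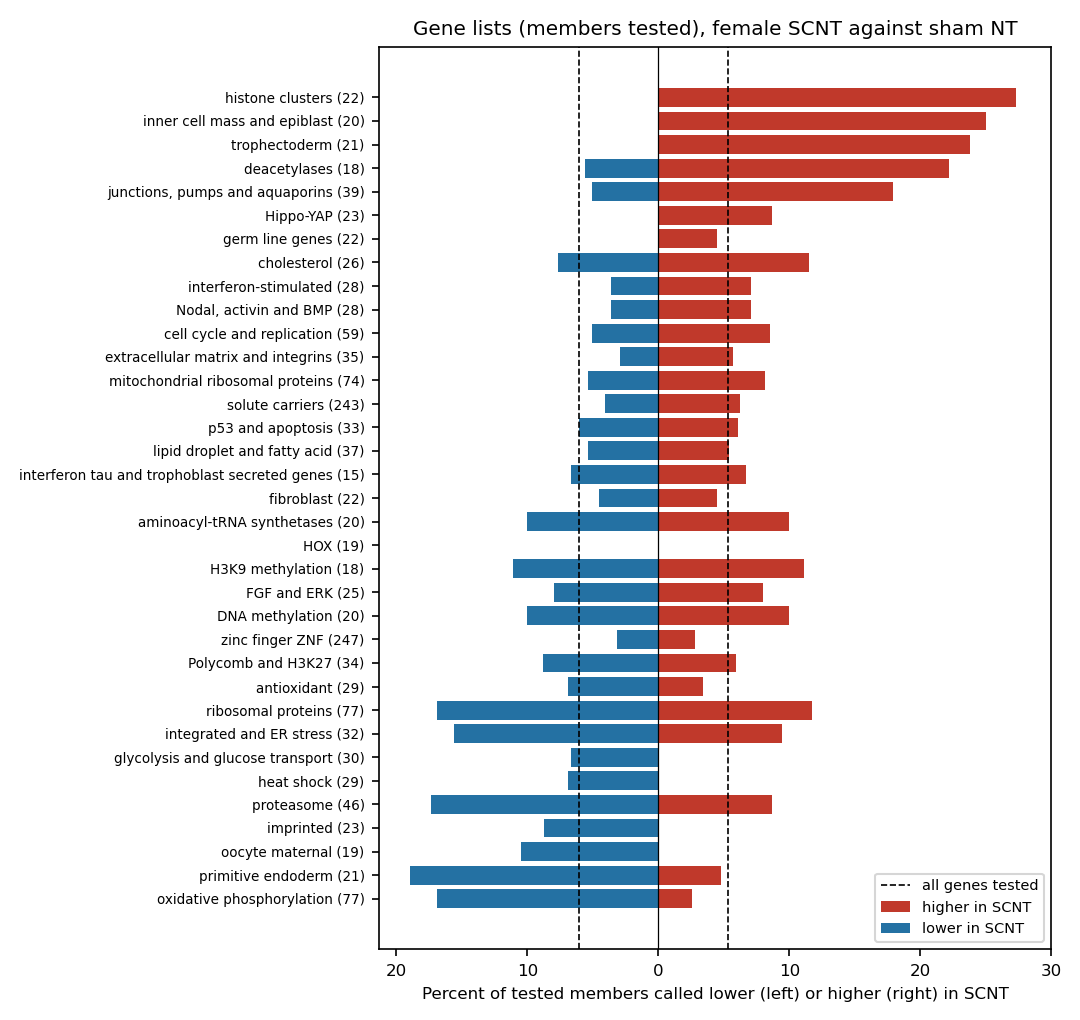
For each list with at least 15 tested members (number in brackets), the percentage of tested members called higher in SCNT-BLs (red, to the right) and lower (blue, to the left); the dashed lines mark 5.28% and 6.04% of all genes tested. Histone clusters, inner cell mass and epiblast, and trophectoderm stand at the top with no member lower, and primitive endoderm and oxidative phosphorylation at the bottom.

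Of 59 tested genes of the cell cycle and replication 5 rose and 3 fell (median 0.14); the counts were 3 higher and 4 lower without SCNT-BLs 1 to 4, and 6 higher and 7 lower without SCNT-BLs 5 and 6. CDC20, an activator of the anaphase-promoting complex, was at 39.7 to 66.5 FPKM (median 47.1) in the 6 SCNT-BLs against 16.7, 13.9, 15.5, 14.3 and 18.5 FPKM in sham NT-BLs 1 to 5. SCNT-BLs lay above sham NT-BLs throughout (log2 fold change 1.57 ± 0.21 (SE), adjusted p = 0.00035). CDC25A, a phosphatase that starts S phase, rose by 1.41 (adjusted p = 0.015). ORC6, of the origin recognition complex, was at 11.5 to 23.1 FPKM (median 20.9) in the 6 SCNT-BLs against 72.7, 209.5, 178, 206 and 118 FPKM in sham NT-BLs 1 to 5. It was lower without overlap (log2 fold change -2.90 ± 0.29 (SE), adjusted p = 4.4e-05).

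DBF4, the activator of the replication kinase CDC7, was no list member but had one of the smallest adjusted p values. It was at 15.4 to 26.7 FPKM (median 20.6) in the 6 SCNT-BLs against 136, 129, 108, 112 and 158 FPKM in sham NT-BLs 1 to 5. Every sham NT-BL lay above every SCNT-BL (log2 fold change -2.58 ± 0.21 (SE), adjusted p = 1.3e-05), and female IVF-BLs had 37.3 ± 12.1 FPKM (SD, n = 6). In males the DBF4 change was -0.76 (adjusted p = 0.06), and the difference between the sexes was tested at -1.82 ± 0.32 (SE), adjusted p = 0.0031.

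Of 25 tested genes of FGF and ERK signalling 2 rose and 2 fell, of 28 for Nodal, activin and BMP 2 and 1, and of 35 for extracellular matrix and integrins 2 and 1. SPRY2, a feedback inhibitor of growth factor receptors, was at 7.4 to 23.6 FPKM (median 15.7) in the 6 SCNT-BLs against 1.54, 5.91, 1.93, 0.433 and 3.53 FPKM in sham NT-BLs 1 to 5 and did not overlap (log2 fold change 2.18 ± 0.43 (SE), adjusted p = 0.0045). Its male change was -1.37 (adjusted p = 0.012), in the opposite direction. BMPR1A, a type I BMP receptor, was at 5.96 to 11.3 FPKM (median 8.11) in the 6 SCNT-BLs against 22.9, 25.1, 27.8, 28 and 17.7 FPKM in sham NT-BLs 1 to 5. It fell (log2 fold change -1.42 ± 0.25 (SE), adjusted p = 0.0023).

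Of 26 tested cholesterol genes 3 rose and 2 fell, and of 37 for lipid droplets and fatty acids 2 and 2. PLIN2, the coat protein of lipid droplets, was at 31.6 to 60.8 FPKM (median 53.3) in the 6 SCNT-BLs against 70.5, 115, 124, 185 and 177 FPKM in sham NT-BLs 1 to 5, lower without overlap (log2 fold change -1.33 ± 0.27 (SE), adjusted p = 0.0047). ACAT2, which condenses acetyl-CoA, was lower as well, with 15.3 to 33.9 FPKM in SCNT-BLs against 47.4 to 89.2 FPKM in sham NT-BLs (log2 fold change -1.55, adjusted p = 0.0013). Of 15 tested secreted genes of the trophoblast, interferon tau among them, PTGES fell and IFNT2 rose. PTGES, a prostaglandin E synthase, was at 1.89 to 32 FPKM in SCNT-BLs against 36.3 to 125 FPKM in sham NT-BLs (log2 fold change -2.70, adjusted p = 0.0033). IFNT2, an interferon tau gene of a family of near-identical copies, was at 2.94 to 19.4 FPKM in SCNT-BLs against 1.16 to 8.26 FPKM in sham NT-BLs (log2 fold change 1.58, adjusted p = 0.045), and its call was lost without SCNT-BL 1, 2, 3, 4 or 5 or sham NT-BL 1, 2, 3 or 4 (adjusted p up to 0.11).

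Of 28 tested interferon-stimulated genes 2 rose and 1 fell (TRIM21), of 22 germ line genes 1 rose (MAEL, lost without SCNT-BL 2, 3, 4 or 5 or sham NT-BL 2, 3 or 4 (adjusted p up to 0.083)) and of 8 genes of cleavage-stage genome activation 1 rose (KLF5, named above). Of 247 zinc finger genes with ZNF symbols 7 (2.8%) rose and 8 (3.2%) fell, and of 243 solute carriers 15 (6.2%) rose and 10 (4.1%) fell. Over all genes tested 5.28% rose and 6.04% fell.

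Outside the lists, the genes that rose with the smallest adjusted p after ESRRB included ATP6V0C, RAD23B, MKL1 and MYL9. ATP6V0C, the proteolipid of the vacuolar proton pump, was at 103 to 179 FPKM (median 165) in the 6 SCNT-BLs against 36.1, 29.4, 32, 41.1 and 27.6 FPKM in sham NT-BLs 1 to 5. RAD23B, which recognizes DNA damage and carries ubiquitinated proteins, was at 182 to 312 FPKM (median 207) in the 6 SCNT-BLs against 91, 33, 29.5, 51.3 and 37.5 FPKM in sham NT-BLs 1 to 5. Both were higher in all SCNT-BLs (log2 fold change 2.10 ± 0.22 (SE), adjusted p = 6.2e-05, and log2 fold change 2.27 ± 0.28 (SE), adjusted p = 0.00019). MKL1, a coactivator of serum response factor, rose by 2.28 (adjusted p = 0.00016), and MYL9, a myosin regulatory light chain, by 1.79 (adjusted p = 0.00016). In males these 4 also rose, by 1.64 (adjusted p = 0.00052), 2.47 (adjusted p = 0.00018), 1.86 (adjusted p = 0.00074) and 1.34 (adjusted p = 0.0012).

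Of the genes with large increases, NEDD8, a ubiquitin-like modifier, was at 14.6 to 30.1 FPKM (median 20.7) in the 6 SCNT-BLs against 2.06, 9.8, 0.497, 1.23 and 0 FPKM in sham NT-BLs 1 to 5. RUNX1, a transcription factor known from blood formation, was at 5.41 to 19.5 FPKM (median 10.7) in the 6 SCNT-BLs against 0.316, 0.167, 3.56, 0.502 and 0.174 FPKM in sham NT-BLs 1 to 5. FARS2, the mitochondrial phenylalanyl-tRNA synthetase, was at 19 to 97.4 FPKM (median 32.6) in the 6 SCNT-BLs against 1.8, 7.71, 9.49, 2.65 and 3.06 FPKM in sham NT-BLs 1 to 5. In each the lowest SCNT-BL exceeded the highest sham NT-BL (log2 fold changes 3.12 ± 0.50, 2.71 ± 0.45 and 2.79 ± 0.43 (SE), adjusted p = 0.0012, 0.0015 and 0.001). The RUNX1 call was lost without SCNT-BLs 1 to 4 (adjusted p = 0.052).

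The largest decreases among genes with a name other than a locus number were those of C21H14orf2, TCF25 and FKBP2. C21H14orf2 was at 0 to 63.9 FPKM (median 21.4) in the 6 SCNT-BLs against 387, 574, 433, 521 and 219 FPKM in sham NT-BLs 1 to 5. TCF25, a component of ribosome quality control, was at 0 to 17.8 FPKM (median 11.2) in the 6 SCNT-BLs against 60.9, 107, 185, 168 and 193 FPKM in sham NT-BLs 1 to 5. FKBP2, a prolyl isomerase of the ER, was at 11 to 38.8 FPKM (median 22.1) in the 6 SCNT-BLs against 222, 452, 342, 408 and 624 FPKM in sham NT-BLs 1 to 5. All 3 were lower in every SCNT-BL than in any sham NT-BL (log2 fold changes -5.04 ± 0.84, -4.48 ± 0.75 and -4.18 ± 0.35 (SE), adjusted p = 0.0016, 0.0016 and 1.3e-05). Female IVF-BLs had 27.8 ± 22, 3.17 ± 4.59 and 20.1 ± 7.5 FPKM of these 3 genes (SD, n = 6), so they too were far below the sham NT-BLs. VPS37C, of the ESCRT-I complex, and SRA1, a steroid receptor coactivator, also fell, by 3.47 and 3.77 on the log2 scale (adjusted p = 1.5e-05 and 1.5e-05). RNASE1, a secreted ribonuclease whose symbol occurs in 2 rows, fell by 3.86 (adjusted p = 0.0081) with groups that just overlapped. SRA1 averaged 16.8 FPKM in SCNT-BLs, 20.6 FPKM in female IVF-BLs and 236.1 FPKM in sham NT-BLs. For RNASE1 these means were 47.3, 319.8 and 496.7 FPKM.

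Of the rows without a gene name, LOC100337426, LOC100848193 and LOC786987 fell most. LOC100848193 was at 22.3 to 53.4 FPKM (median 35.1) in the 6 SCNT-BLs against 467, 2232, 1738, 1273 and 381 FPKM in sham NT-BLs 1 to 5 (log2 fold change -4.75 ± 0.43 (SE), adjusted p = 1.8e-05). LOC786987 was at 0 to 0.594 FPKM in SCNT-BLs against 12.3 to 68.3 FPKM in sham NT-BLs (log2 fold change -4.38, adjusted p = 3.7e-05), and LOC100337426 at 0 to 0.737 FPKM in SCNT-BLs against 1.11 to 262 FPKM in sham NT-BLs (log2 fold change -5.19, adjusted p = 0.0018). Female IVF-BLs averaged 40.08 FPKM of LOC100848193, 13.25 FPKM of LOC786987 and 0.0978 FPKM of LOC100337426.

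The same contrast was available in males, in 6 SCNT-BLs and 6 sham NT-BLs that share no embryo with the female comparison. There 820 of 14206 autosomal genes were higher in SCNT-BLs (5.77%) and 886 lower (6.24%). Of the 765 genes called higher in females, 761 were tested in males, 606 of them (79.6%) were above 0 there and 218 (28.6%) were called higher, with a median male log2 fold change of 0.62. Of the 875 called lower, 736 (84.1%) were below 0 in males and 353 (40.3%) were called lower, with a median of -0.79. Over the 13479 genes tested in both sexes, 50.2% were above 0 in males and the median was 0.00. Male SCNT-BLs came from another donor population, and the male libraries were pooled and run on another flow cell. Sex, donor population of the SCNT-BLs and flow cell thus cannot be told apart in this comparison.

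The interaction of origin and sex was called at 322 of 14584 genes (2.21%), 161 in each direction (1.10% with the larger and 1.10% with the smaller change in females), and at 183 of the 1640 genes called in females. Those 1640 were picked on female values that also enter the interaction, so their share cannot be weighed against the 2.21%. Of the genes called higher in females 14 were called lower in males, and of those called lower 8 were called higher in males. The 5 most divergent named genes were MIR2290, LOC787220, ITPR2, B3GNT6 and LOC782021, all higher in female and lower in male SCNT-BLs.

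ITPR2, a calcium release channel of the ER, was at 158 to 616 FPKM (median 281) in the 6 SCNT-BLs against 136, 15.4, 3.6, 0.891 and 9.88 FPKM in sham NT-BLs 1 to 5. It did not overlap in females (log2 fold change 4.66 ± 0.77 (SE), adjusted p = 0.0015), while the male change was -3.10 (adjusted p = 0.0059) and the difference between the sexes 7.76 ± 1.11 (SE), adjusted p = 0.00049. LOC787220 was at 114 to 173 FPKM (median 141) in the 6 SCNT-BLs against 52.5, 0, 0, 0 and 0 FPKM in sham NT-BLs 1 to 5 (log2 fold change 5.97 ± 0.82 (SE), adjusted p = 0.00041) and changed in males by -3.98 (adjusted p = 0.017). MIR2290 was at 287 to 661 FPKM (median 383) in the 6 SCNT-BLs against 801, 0, 0, 0 and 0 FPKM in sham NT-BLs 1 to 5; sham NT-BL 1 was thus the highest of all 11 embryos while the other 4 were at 0 (log2 fold change 6.77 ± 1.35 (SE), adjusted p = 0.0045). Its row is a microRNA locus, far shorter than a sequenced fragment library resolves, so reads of overlapping transcripts can enter it, and ITPR2 and LOC787220 occur in 2 rows each. B3GNT6, a glycosyltransferase, was at 85.7 to 193 FPKM (median 150.2) in the 6 SCNT-BLs against 5.69, 123, 11.2, 5.42 and 6.16 FPKM in sham NT-BLs 1 to 5. Sham NT-BL 2 alone reached the SCNT-BLs (log2 fold change 3.34 ± 0.61 (SE), adjusted p = 0.0026), and in males the change was -3.77 (adjusted p = 0.0016).

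**Figure D5:**
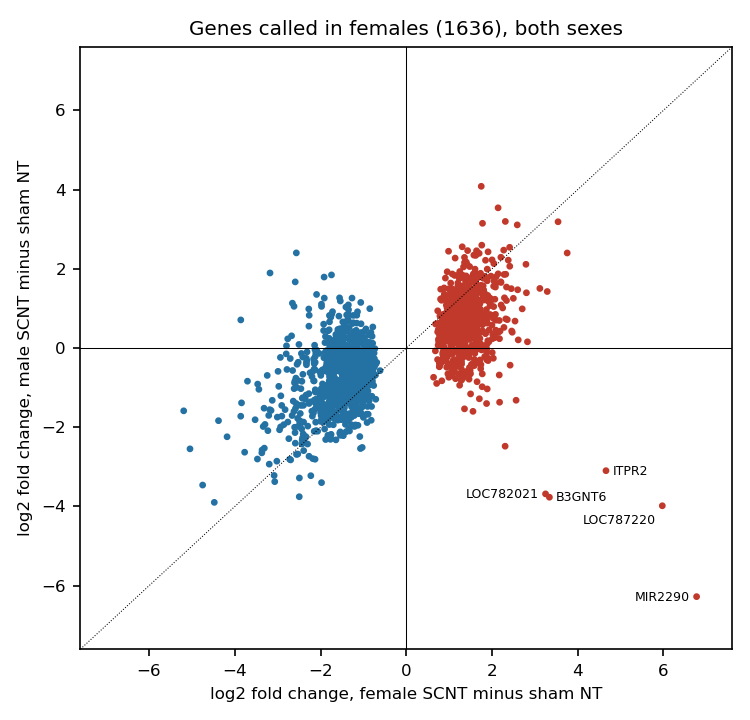
Each point is a gene called in females that was also tested in males, with the female log2 fold change of SCNT-BLs minus sham NT-BLs on the horizontal axis and the male one on the vertical axis; red genes were called higher in females, blue lower, and the dotted line marks equal change. Most red points lie above 0 (606 of 761) and most blue points below 0 (736 of 875), and the labelled genes at the lower right changed in opposite directions.

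In male embryos 4 inner cell mass and epiblast genes rose and none fell (median 0.3), and 5 trophectoderm genes rose and 1 fell (median 0.1). Of the histone clusters 4 rose and 1 fell in males (median 0.61). ESRRB rose in males by 1.20 (adjusted p = 0.019) and KLF5 by 1.06 (adjusted p = 0.0021), and the interaction was called for neither (adjusted p = 0.14 and 0.69). For PSMB5 the male change was -0.69 (adjusted p = 0.11), and the difference between the sexes was called (-2.55 ± 0.56 (SE), adjusted p = 0.015).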

How the data were processed

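Single-embryo poly(A) RNA was amplified by pico-profiling with random primers and sequenced as read pairs. The authors trimmed reads with Trim Galore, aligned them to UMD3.1 with TopHat and estimated levels with Cufflinks and Cuffdiff (versions are not given in the sources used here); they deposited FPKM per gene and library in 1 table of 22628 rows and 37 libraries, without read counts. FPKM is no count, so no count test was run. Depth is given as a relative value per library read from the table, and the study's mapped reads per library were used only as a covariate and to pick the 4 deeper SCNT libraries.

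Of the rows, 999 in the block of X genes and 22 others on X, Y or the mitochondrial genome were left out, leaving 21607. Symbols were matched to RefSeq genes (ARS-UCD2.0) for names and for the chromosome, by which the 22 rows were found. Of the 21607 rows, 18712 were placed on a numbered autosome. Rows without a placement, LOC100848193 and LOC100337426 among them, were counted as autosomal. With the placed rows only, 1514 of the 1640 calls were kept. Rows with a mean over 0.1 FPKM in the compared embryos were tested on log2(FPKM + 1) with limma 3.58.1 (R 4.3.3; trended variance, Benjamini-Hochberg adjustment, adjusted p under 0.05) in the groups compared only; the interaction used both sexes. For single values per embryo an exact permutation test (two-sided) was used. Simulated data with 100 genes changed by 1 and 100 by 2 on the log2 scale gave 16% and 73% recovered in females, with 6 unchanged genes called of 14776, and 25% and 82% in males, with 7 of 14538. The simulated noise was independent between genes, without effects shared across a library, and fewer genes were changed than were called in the embryos. These shares and false calls therefore need not hold for the real data.

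The comparison, the 38 gene lists and the donor sets were chosen with earlier results of these data known. Named genes were the 12 with the largest change and the 6 with the smallest adjusted p in each direction, 3 locus-numbered genes in each direction, and every called list member. Alternatives were the pseudocount, the filter, scaling, weights, depth, replicate numbers and left-out embryos. Some genes that the rule names are not reported here.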

Additional observations from a re-analysis of the deposited data

Results flagged for a closer look

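In 100 groups of embryos examined over 38 genes and the single measures, 11 held 1 embryo set apart from the rest by Dixon's test, which flags about 1 group in 20 by chance. Sham NT-BL 1 was set apart most often. It had 109.3 FPKM of SRA1 where the other sham NT-BLs had 236.5 to 288.3, 218.9 FPKM of REXO2 where they had 478 to 539.7, 52.52 FPKM of LOC787220 where all the others were listed at 0, and 801.2 FPKM of MIR2290 where all the others were listed at 0. Sham NT-BL 2 had 123.1 FPKM of B3GNT6 against 5.419 to 11.17 in the others, and 45.24 FPKM summed over the blood markers against 12.34 to 21.63. Sham NT-BL 3 had 2.497 FPKM of MKL1 against 4.895 to 5.176, and 3.559 FPKM of RUNX1 against 0.1671 to 0.5025. Among SCNT-BLs, replicate 1 had 0.5942 FPKM of LOC786987 against 0 to 0.1066 in the others, replicate 5 was listed at 0 FPKM for HIST1H2AG against 11.83 to 35.07, and replicate 6 had 28.66 FPKM of H2AFZ against 107.2 to 158.9.

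The 38 genes examined here were picked for a large change or a small adjusted p in females. Female values also enter the interaction, so this choice favours a larger change in females than in males. For 10 of the 38 the change from sham NT-BLs to SCNT-BLs differed between the sexes by the interaction test in limma, where 2.21% of all 14584 genes tested did. It was more negative in females for C7H19orf70 (female minus male log2 fold change -2.46, adjusted p = 0.00638), REXO2, an oligoribonuclease (-2.4, adjusted p = 0.0106), DBT (-1.81, adjusted p = 0.0111) and DBF4 (-1.82, adjusted p = 0.00313). It was more positive in females for LOC100848149 (1.86, adjusted p = 0.0323), LOC782021 (6.93, adjusted p = 0.00498), B3GNT6 (7.11, adjusted p = 0.000446), ITPR2 (7.76, adjusted p = 0.000489), LOC787220 (9.96, adjusted p = 0.000533) and MIR2290 (13.05, adjusted p = 0.00359). Sex, donor population and flow cell cannot be told apart in these differences.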

How the results depend on the processing

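Without the 4 deeper SCNT libraries, 416 genes were called higher and 501 lower in females, and 40 and 63 list members; fewer samples entered that fit. Leaving out 1 embryo gave 477 to 791 higher and 659 to 890 lower calls, with 66 to 105 and 75 to 103 list members; the fewest higher calls came without sham NT-BL 4. In males it gave 648 to 831 and 693 to 934. The difference in similarity stayed between 0.0357 and 0.0425. Replicate numbers did not pair the samples (correlation of same-numbered embryos -0.114 to -0.016 in females and -0.134 to 0.025 in males); with them as a block 498 genes were called higher in females, and the interaction was called at 107. Of the donor-high genes, 2 were called higher with a pseudocount of 0.1, and 9 higher and 5 lower with male IVF-BLs; with limits of 10 and 0.25 FPKM 1 was called lower. One embryo left out gave 0 to 1 higher and 4 to 10 lower. Their median was -0.13 with that pseudocount, -0.08955 with median centring and -0.07 to 0.02 with 1 embryo left out. Of the embryo-high genes 25 were called higher and 12 lower with the stricter limits, with a median of 0.25; the median was 0.08993 with centring and 0.094 to 0.16 with 1 embryo left out, where 31 to 44 were called higher and 19 to 28 lower. The cause of these shifts was not tested. KRT8, which was not called, was at -0.021 with mapped reads as a covariate and -0.29 without the deeper SCNT libraries. KRT18, also not called, was at 0.19 with quantile normalization or library weights, 0.12 with the block, 0.29 without SCNT-BLs 5 and 6 (chosen after seeing the data) and -0.47 to 0.12 with 1 embryo left out. No called gene turned its direction under any alternative run, though only 614 of the 1640 calls were kept without the deeper SCNT libraries. The table holds no read counts, so no counting error could be given for genes of low level.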

Other observations

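The libraries held values outside the tested lists that belong in no comparison above. FTH1, the heavy chain of the iron store ferritin, averaged 1011 FPKM in SCNT-BLs and 292.2 FPKM in sham NT-BLs (limma, log2 fold change 1.79, adjusted p = 0.00118), and RHOA, a small GTPase of the cytoskeleton, 1230 and 3213 FPKM (log2 fold change -1.54, adjusted p = 0.0115). SLIRP, which stabilizes mitochondrial transcripts, averaged 456 and 2246 FPKM (log2 fold change -2.35, adjusted p = 0.00264). These were named after their values were seen, for their share of the summed FPKM.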
